A study of Mus musculus with 6 samples.

Results

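The autophagy machinery was described here as 43 protein-coding genes of the 11604 genes in the deposited table, chosen by name: the Atg genes, the ULK kinases and Rb1cc1, the subunits of the class III phosphatidylinositol 3-kinase, the LC3 and GABARAP genes, Wipi1 and Wipi2, the cargo and mitophagy receptors, and Tfeb and Tfe3. Optn and Calcoco2, which the same rule would take, have no row in the table and were not analysed here. RNA came from CT26, a colon carcinoma line of the BALB/c mouse, labelled as wild type in all samples. The 3 control libraries were from cells given DMSO, the solvent, and the 3 treated libraries from cells given 10 µM irinotecan (CPT-11) for 24 h. Irinotecan is a prodrug that carboxylesterases convert to SN-38, which traps topoisomerase I on DNA. Whether a group's samples were separate cultures is not in the labels, and the series' own design text speaks of duplicates where the labels give 3 libraries a group, all of which were used. Each p-value reflects the scatter among these samples alone, and that scatter may be technical.

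Autophagy delivers cytoplasm and organelles to the lysosome in a membrane-bound vesicle, the autophagosome. The ULK1 kinase complex starts the process, the class III phosphatidylinositol 3-kinase marks the membrane, ATG9 and ATG2 supply lipid, and a pair of ubiquitin-like reactions attaches the ATG8 proteins (the LC3 and GABARAP families) to the membrane, where cargo receptors bind them. In tumor cells the pathway is known as a survival response to starvation and to drugs. The level of an mRNA is not a measure of autophagic flux, which depends largely on protein phosphorylation and lipidation.

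The libraries held 16052326 to 17294496 counts. Of the marker lists consulted, 3 of 11 epithelial and intestinal genes had a row (Cdh17, Krt18 and Krt20), and Epcam and Cdh1 did not. Their summed level was 96.5 to 103 CPM in DMSO and 87.3 to 98.6 CPM with irinotecan, where Cdh17 rose (0.900 to 2.40 CPM) and Krt18 fell (53.1 to 45.3 CPM). The fibroblast list had 5 of 7 with a row, at summed levels of 1641 to 1674 CPM (counts scaled to library size) in DMSO and 1841 to 1891 CPM with irinotecan. Most of that sum was Col1a2, at 1400 ± 15.2 and 1515 ± 24.1 CPM (SD, n = 3). It did not pass (adjusted p = 0.071), though every treated library stood above every control. The collagen genes Col1a1 (log2 fold change 0.47, adjusted p = 2.3e-07) and Col3a1 (0.57, adjusted p = 2.6e-07) rose. The haematopoietic list had 2 of 9 (Cd68 and Cd14, at a summed 24.9 to 28.5 CPM in DMSO and 31.1 to 34.3 CPM with irinotecan), with Ptprc, the pan-leukocyte marker, without a row, and the endothelial list had 0 of 5. The part of these shifts in the results below was not tested. In RNA of whole cultures, fewer cells of a kind and less RNA per cell cannot be told apart.

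With irinotecan, 11 of the 43 autophagy genes rose, 3 fell and 29 did not pass (edgeR quasi-likelihood test, adjusted p under 0.05 over all genes tested). The genes that rose were in the initiating kinase complex (Ulk1, Atg13), among the lipid suppliers (Atg9b, Atg2a), in the ATG8 family (Map1lc3b, Gabarapl1, Gabarap) and among the receptors for cargo and mitochondria (Calcoco1, Nbr1, Bnip3, Bnip3l). Those that fell were Tfe3, Wipi2 and Atg12. The enzymes that conjugate ATG8 and the subunits of the phosphatidylinositol 3-kinase held no gene that rose. All 43 passed the filter on low counts, as did all but 5 of the 11604 genes in the table. The deposited table held no count of 0, and its lowest sum over the 6 libraries was 58. A gene without a row was therefore not necessarily without reads.

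Read against the table as a whole, 25.6% of the autophagy genes were called higher, where 11.8% of all 11599 genes tested were, and 6.98% were called lower, where 10.3% of all genes were. In either direction the shares were 32.6% and 22.1%. The 3 irinotecan libraries stood above the 3 DMSO libraries without overlap in 16 autophagy genes, 37.2% against 19.3% of all genes, and below them in 5, 11.6% against 17.8%. The median log2 fold change was 0.08 over the 43 genes and 0.00 over all genes. Changes were small: Bnip3 alone was called and moved more than 1.5-fold, which is 2.33% of the 43 genes against 3.32% of all genes. Without DMSO replicate 2 the number that rose was 7, while the number over all genes was 983 instead of 1369.

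**Figure D1:**
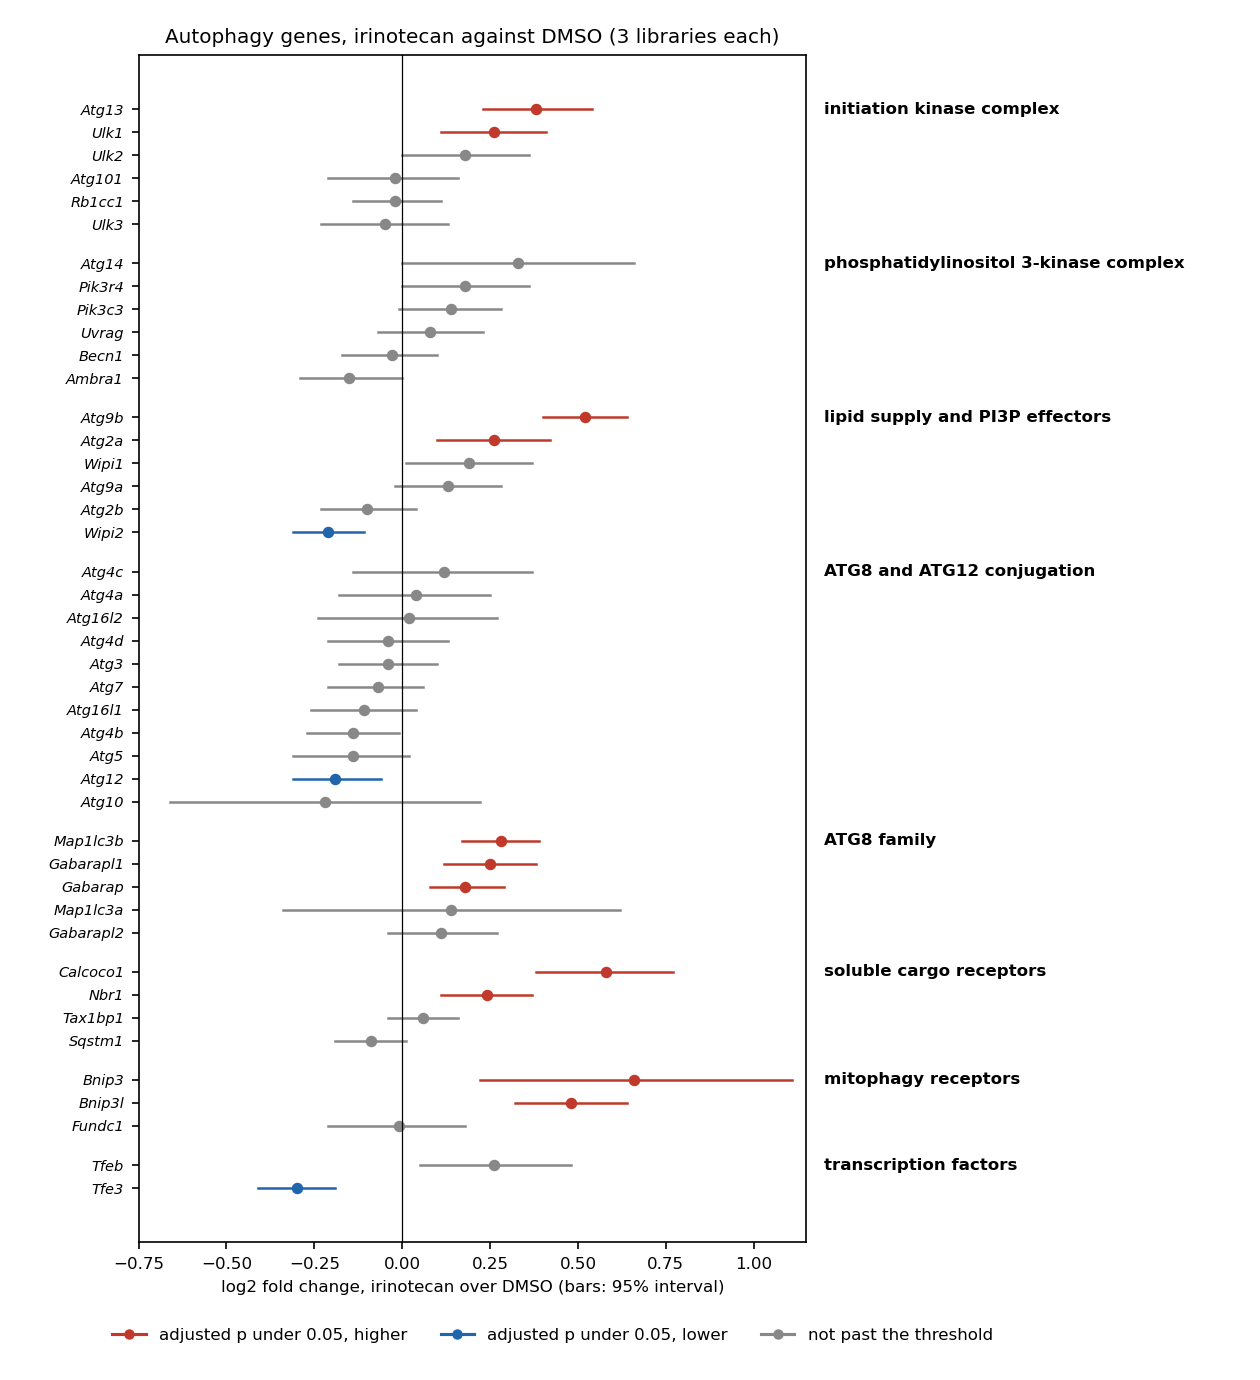
Log2 fold change of irinotecan over DMSO for each of the 43 autophagy genes, grouped by role, with 95% intervals from the edgeR fit; red and blue mark genes past an adjusted p of 0.05. The 11 genes that rose lie between 0.18 and 0.66 and the 3 that fell between -0.30 and -0.19, while no gene of the phosphatidylinositol 3-kinase is past the threshold.

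By level per length, in the authors' FPKM, the autophagy genes spanned from Atg14 at 1.37 ± 0.253 to Sqstm1 at 184 ± 8 in DMSO (SD, n = 3). Sqstm1 encodes p62, the receptor that gathers ubiquitinated cargo, and it stood far above the next gene, Gabarap, at 53.6 ± 0.395 FPKM. Wipi2 (24.7 ± 0.89), Atg101 (23.8 ± 1.63) and Gabarapl1 (23.5 ± 0.378 FPKM) followed within each other's spread. At the lower end, Pik3r4, Atg10, Atg16l2 and Atg14 were at 2.24 FPKM or less. With irinotecan, Gabarapl1 (28.6 ± 1.03) and Atg9b (25.8 ± 0.288 FPKM) stood above Wipi2 (21.8 ± 0.552 FPKM).

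**Figure D2:**
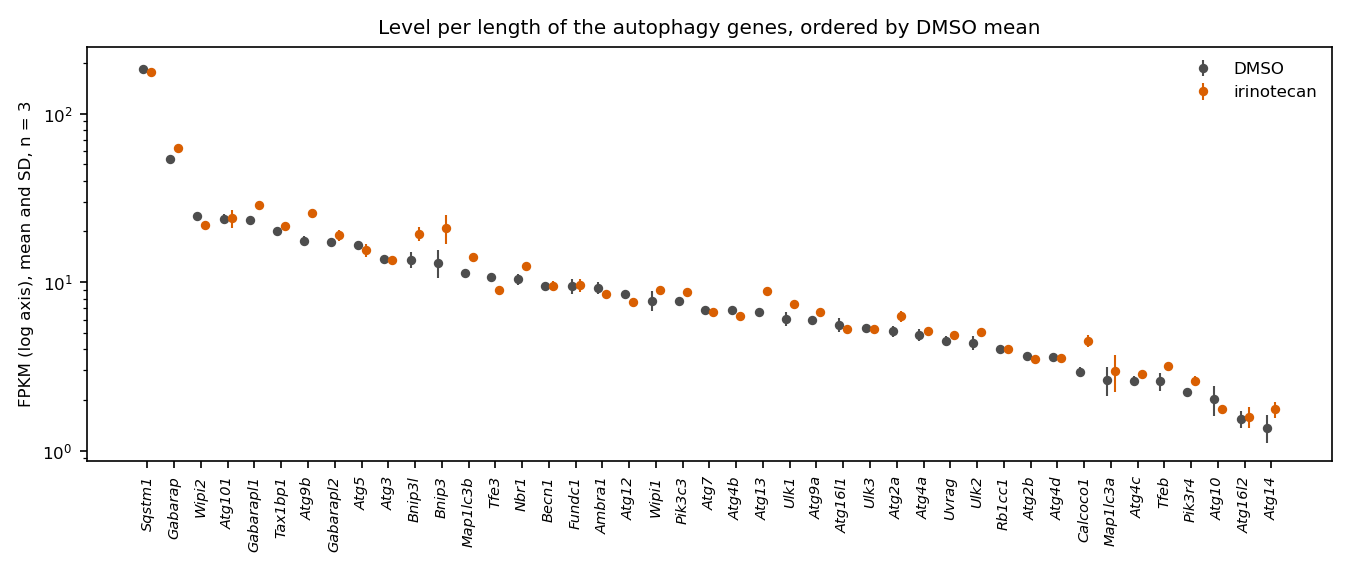
Mean FPKM and SD (n = 3) of each autophagy gene in DMSO and with irinotecan, on a log axis and ordered by the DMSO mean. Sqstm1 (184 and 176 FPKM) stands apart at the top, and Atg14 (1.37 and 1.76 FPKM) is lowest in DMSO.

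The ULK complex receives signals from mTORC1 and AMPK and consists of a ULK kinase, ATG13, ATG101 and the scaffold RB1CC1 (FIP200). Of 6 genes in this group, with the related kinase Ulk3 among them, 2 rose and 4 did not pass. Atg13 (ENSMUSG00000027244, chromosome 2, 91504963 to 91540921 on GRCm39), the adaptor that binds the kinase, stood at 28.8, 29.2 and 30.6 CPM in DMSO replicates 1 to 3 and at 37.7, 39.5 and 38.5 CPM in irinotecan replicates 1 to 3. The groups were far apart relative to their spread, and the log2 fold change was 0.38 ± 0.074 (SE, adjusted p = 8.1e-04). Ulk1 (chromosome 5, 110932354 to 110957963), the kinase itself, stood at 38.1, 37.9 and 43.7 CPM in DMSO and at 48.7, 46.5 and 47.8 CPM with irinotecan, a log2 fold change of 0.26 ± 0.073 (adjusted p = 0.015). DMSO replicate 3 came closest to the treated libraries, and leaving out DMSO replicate 1 (adjusted p = 0.065), DMSO replicate 2 (0.064) or irinotecan replicate 1 (0.064) ended the call, within a range of 0.0017 to 0.065 over 13 alternatives. The other members differed less: Ulk2 had a log2 fold change of 0.18 ± 0.085 (adjusted p = 0.14), Ulk3 of -0.05, Atg101 of -0.02 and Rb1cc1 of -0.02 with a 95% interval of -0.14 to 0.11.

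The class III phosphatidylinositol 3-kinase makes the lipid mark on which the later proteins assemble. Its catalytic subunit is Pik3c3 (VPS34), its other subunits are Pik3r4, Becn1 and either Atg14 or Uvrag, and Ambra1 regulates Becn1. None of the 6 genes passed with edgeR, where Ambra1 and Pik3r4 had an unadjusted p under 0.05, and none passed with DESeq2 or limma-voom. Pik3c3 stood at 36.2, 34.2 and 34.8 CPM in DMSO and at 38.7, 39.1 and 37.6 CPM with irinotecan, without overlap, at a log2 difference of 0.14 ± 0.072 (SE, adjusted p = 0.19). Becn1, a binding partner of BCL2 proteins, had a log2 fold change of -0.03 with an interval of -0.17 to 0.10. Atg14, the subunit that sends the complex to the site of autophagosome formation, was the lowest gene per length in DMSO, with 86 to 120 counts per library there and 119 to 147 with irinotecan. Its log2 fold change of 0.33 ± 0.16 (adjusted p = 0.15) had an interval of -0.00 to 0.66. Pik3r4, the regulatory subunit, had a value of 0.18 (adjusted p = 0.14) and Uvrag of 0.08 (adjusted p = 0.47). Ambra1 had the lowest value of the group, -0.15 ± 0.069 (adjusted p = 0.13).

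Among the genes that supply lipid and read the mark, ATG9 proteins are membrane scramblases carried on vesicles, ATG2 proteins move lipid into the growing membrane, and WIPI proteins bind phosphatidylinositol 3-phosphate. Of these 6 genes, 2 rose and 1 fell. Atg9b (ENSMUSG00000038295, chromosome 5, 24589179 to 24597141) had the smallest p of all 43 genes: it stood at 67.4, 67.9 and 74.8 CPM in DMSO and at 100.3, 102 and 99.9 CPM with irinotecan. The treated libraries lay within 3 CPM of each other and above every control, at a log2 difference of 0.52 ± 0.058 (SE, adjusted p = 1.2e-06). It overlaps Nos3 on the other strand by 294 bases in the table, as 9 of the 43 genes overlap another gene there, and whether counting used strand is not given in the sources used here. Nos3 stood at 2.76 ± 0.761 and 2.23 ± 0.311 CPM (SD, n = 3).

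Atg2a stood at 43.1, 38.1 and 38.5 CPM in DMSO and at 51.2, 44.0 and 47.9 CPM with irinotecan. Irinotecan replicate 2 lay just above DMSO replicate 1, and the log2 fold change was 0.26 ± 0.076 (SE, adjusted p = 0.018). It no longer passed once DMSO replicate 2 (0.069), DMSO replicate 3 (0.05) or irinotecan replicate 1 (0.12) was left out, and the 13 alternatives ran from 0.0014 to 0.12. Wipi2, which recruits the ATG16L1 complex and is the more abundant WIPI gene here per length, fell from 255, 277 and 258 CPM to 222, 233 and 228 CPM, a log2 fold change of -0.21 ± 0.048 (adjusted p = 0.0036). The 3 other genes did not pass: Wipi1 at 0.19 ± 0.086, Atg9a at 0.13 ± 0.073 and Atg2b at -0.10 ± 0.066. Atg9a shares 46 bases with Ankzf1 and Atg2b 383 bases with Gskip. The largest overlaps among the 43 genes lay in other groups. They were Atg16l2 with Fchsd2 (21372 bases), Rb1cc1 with 4732440D04Rik (5428), Atg4d with Kri1 (4316) and Atg4b with Thap4 (3365).

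The conjugation machinery cleaves ATG8 (ATG4 proteases), activates it (ATG7), and passes it through ATG3 to the membrane lipid with the help of the ATG12-ATG5-ATG16L1 complex, which ATG10 helps to form. It was the largest group, with 11 genes, and had the lowest median log2 fold change of the groups, -0.07. Atg12 (chromosome 18, 46863211 to 46874647) stood at 64.6, 67.3 and 66.0 CPM in DMSO and at 55.5, 57.4 and 61.1 CPM with irinotecan, the third treated library being nearest to the controls. It fell by 0.19 on the log2 scale (SE 0.062, adjusted p = 0.036). Scaling by total counts alone ended this call (0.08), as did leaving out any 1 library other than irinotecan replicate 3, and the 13 alternatives ran from 0.0083 to 0.16.

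The other 10 conjugation genes did not pass. Atg5 had a log2 fold change of -0.14 (interval -0.31 to 0.02), Atg7 of -0.07 (-0.21 to 0.06), Atg16l1 of -0.11 (-0.26 to 0.04) and Atg3 of -0.04 (-0.18 to 0.10), so that rises above 0.10 lay outside all 4 intervals. Atg4b, the main ATG8 protease, was below the controls in every treated library (56.5, 57.4 and 57.4 CPM against 51.5, 51.3 and 52.4 CPM) at an adjusted p of 0.10. Atg4c had the highest value of the group, 0.12 ± 0.12 (SE), and Atg10 the lowest, -0.22 ± 0.21, at 46 to 70 counts per library. Atg4a, Atg4d and Atg16l2 lay between -0.04 and 0.04.

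ATG8 proteins coat the membrane and hold the receptors. All 5 listed genes of the family had a positive log2 fold change, and 3 rose. Map1lc3b (ENSMUSG00000031812, chromosome 8, 122317100 to 122325499), which encodes LC3B, the usual marker of autophagosomes, stood at 87.0, 86.7 and 86.0 CPM in DMSO and at 103, 106 and 106 CPM with irinotecan. The controls lay within about 1 CPM of each other, and the log2 fold change was 0.28 ± 0.053 (SE, adjusted p = 7.1e-04). Gabarapl1 stood at 48.6, 47.7 and 47.3 CPM and then at 54.8, 58.9 and 57.4 CPM, a rise of 0.25 ± 0.064 (adjusted p = 0.007).

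Gabarap, the most abundant of the family per length, stood at 99.4, 102 and 98.7 CPM in DMSO and at 117, 112 and 112 CPM with irinotecan. The groups did not overlap, and the rise of 0.18 ± 0.052 (SE, adjusted p = 0.015) did not pass when irinotecan replicate 1 was left out (0.075, with 13 alternatives from 0.0016 up to that value). Gabarapl2 (0.11 ± 0.074) and Map1lc3a (0.14 ± 0.23, at 42 to 76 counts per library) did not pass. Summed over the 5 genes, the FPKM went from 108, 110 and 107 in DMSO to 128, 127 and 125 with irinotecan, while the make-up stayed close: Gabarap gave 49.5% ± 0.229 of the sum in DMSO and 49% ± 0.825 with irinotecan (SD, n = 3), and Map1lc3b gave 10.5% ± 0.211 and 11.1% ± 0.33. These genes are related in sequence, and how reads that match several of them were counted is not given in the sources used here. The deposited FPKM is also scaled differently from the CPM. By the group means, Gabarap went from 53.6 to 62.2 FPKM and from 100 to 113.7 CPM. The summed FPKM thus does not give the size of the rise on the CPM scale.

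**Figure D3:**
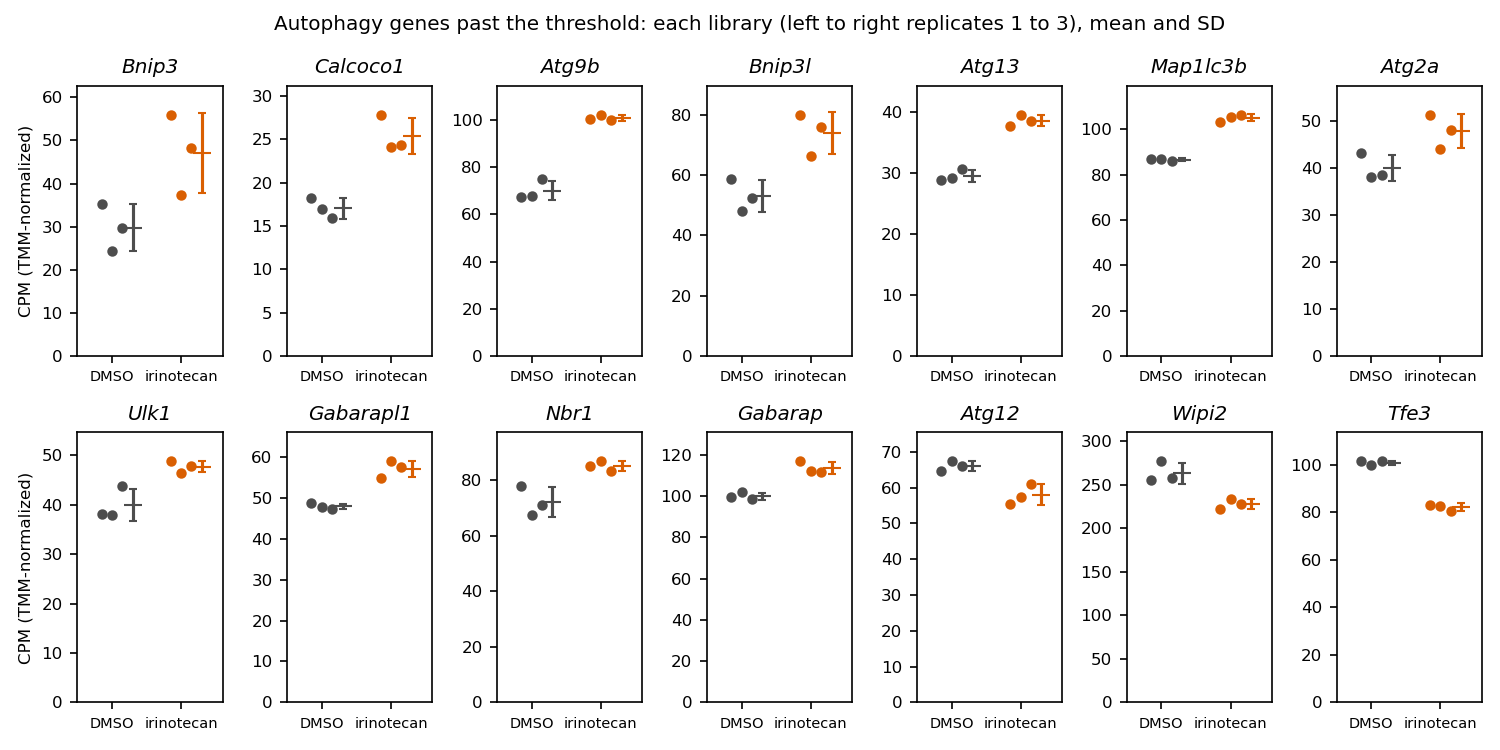
TMM-normalized CPM of the 14 autophagy genes past the threshold, with 1 point per library (replicates 1 to 3 from left to right), the mean and the SD (n = 3). In each panel the irinotecan libraries lie outside the range of the DMSO libraries, by a wide margin for Atg9b, Atg13 and Tfe3 and by a narrow one for Bnip3, Atg2a and Ulk1.

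Soluble cargo receptors link ubiquitinated or tagged cargo to ATG8. Of 4 with a row, 2 rose. Calcoco1 (ENSMUSG00000023055, chromosome 15, 102615212 to 102630613), a relative of the receptor NDP52 that has been described as a receptor for the endoplasmic reticulum and the Golgi, stood at 18.3, 17 and 15.9 CPM in DMSO and at 27.8, 24.1 and 24.3 CPM with irinotecan. All treated libraries lay well above the controls, at a log2 difference of 0.58 ± 0.093 (SE, adjusted p = 1.4e-04). Nbr1, a receptor that works with p62, stood at 78.1, 67.4 and 70.9 CPM in DMSO and at 85.3, 86.8 and 83.4 CPM with irinotecan, a rise of 0.24 ± 0.062 (adjusted p = 0.0081). Leaving out DMSO replicate 2 ended that call (0.051, with 13 alternatives from 3.6e-04 up to that value).

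Sqstm1, a well known transcriptional target of NRF2 and of TFEB as well as a substrate of autophagy, did not pass. It stood at 599.7, 662 and 614 CPM in DMSO and at 570.4, 601 and 586 CPM with irinotecan. The groups overlapped, with a log2 difference of -0.09 ± 0.048 (SE, adjusted p = 0.18) and an interval of -0.19 to 0.01. Tax1bp1, a receptor that takes up protein aggregates, had a log2 fold change of 0.06 with an interval of -0.04 to 0.16.

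Mitophagy receptors sit in the outer mitochondrial membrane and bind ATG8 themselves. Bnip3 and Bnip3l (NIX), BH3-related proteins known as targets of hypoxia-inducible factor, both rose, and Fundc1 did not pass. Bnip3l (ENSMUSG00000022051, chromosome 14, 67222688 to 67246326) stood at 58.7, 48.2 and 52.5 CPM in DMSO and at 80.0, 66.4 and 75.9 CPM with irinotecan, a log2 difference of 0.48 ± 0.077 (SE, adjusted p = 1.3e-04). Bnip3 (ENSMUSG00000078566, chromosome 7, 138492565 to 138511248) stood at 35.2, 24.4 and 29.8 CPM and then at 55.9, 37.4 and 48.2 CPM, a log2 fold change of 0.66 ± 0.18 (adjusted p = 0.047).

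In both genes the replicates numbered 2 were the lowest of their group and those numbered 1 the highest, and for Bnip3 the lowest treated library (37.4 CPM) barely exceeded the highest control (35.2 CPM). Bnip3 no longer passed once DMSO replicate 2 (0.092), DMSO replicate 3 (0.19) or irinotecan replicate 3 (0.17) was left out. Over 13 alternatives its adjusted p ranged from 6.3e-11, with the replicate number as a block, to 0.19. That of Bnip3l stayed at or below 0.003. Fundc1 had a log2 fold change of -0.01 with an interval of -0.21 to 0.18, at 22.5 ± 1.98 and 22.3 ± 1.93 CPM (SD, n = 3). Hif1a, which encodes the hypoxia-inducible subunit and is regulated mainly as a protein, stood at 230 ± 11.1 and 217 ± 5.59 CPM (adjusted p = 0.23).

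TFEB and TFE3 are related transcription factors that enter the nucleus when mTORC1 is inactive and bind E-box sequences in lysosome and autophagy genes. Tfe3 (ENSMUSG00000000134, chromosome X, 7628799 to 7641441) fell from 101, 99.8 and 101 CPM to 83.2, 82.7 and 80.3 CPM. Its groups were tight and well apart, with a log2 difference of -0.30 ± 0.054 (SE, adjusted p = 4.5e-04, at most 0.003 over 13 alternatives). Tfeb stood at 16.8, 13.6 and 14.2 CPM in DMSO and at 18.2, 18.1 and 17.2 CPM with irinotecan. Its log2 fold change of 0.26 ± 0.10 missed the threshold (adjusted p = 0.069). It passed without DMSO replicate 1 (0.027), with the replicate number as a block (0.033) or when scaled by total counts alone (0.046). The 13 alternatives ranged from 0.027 to 0.24.

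The promoter window of RefSeq (300 bases, 250 before the start and 50 after it, on GRCm38.p6) was available for 36 of the 43 genes; Atg12, Atg16l1, Becn1, Bnip3l, Map1lc3a, Pik3c3 and Rb1cc1 had none. The E-box CACGTG, which reads the same on both strands and is the core bound by TFEB, TFE3 and other factors, was searched. The E-box was in 5 of 43 windows of the autophagy genes, some of which have more than 1 window, a share of 11.6%, against 7.15% of all 32851 windows. The 5 genes were Atg3, Atg5, Atg7, Atg14 and Bnip3, of which Bnip3 rose and the other 4 did not pass; none of the 9 other genes that rose and had a window held an E-box there. Shown are the windows of 3 genes with large rises (Bnip3, Atg9b and Calcoco1) and of 2 conjugation genes that did not pass (Atg3 and Atg7), each written along the gene's own strand with any E-box in capitals.
Bnip3, chr7:138909457-138909756, minus strand: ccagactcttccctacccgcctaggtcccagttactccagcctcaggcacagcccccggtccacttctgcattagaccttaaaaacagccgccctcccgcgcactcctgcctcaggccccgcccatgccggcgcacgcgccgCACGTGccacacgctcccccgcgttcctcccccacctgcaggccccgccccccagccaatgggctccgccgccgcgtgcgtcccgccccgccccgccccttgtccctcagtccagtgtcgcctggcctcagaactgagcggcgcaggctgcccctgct
Atg9b, chr5:24392094-24392393, minus strand: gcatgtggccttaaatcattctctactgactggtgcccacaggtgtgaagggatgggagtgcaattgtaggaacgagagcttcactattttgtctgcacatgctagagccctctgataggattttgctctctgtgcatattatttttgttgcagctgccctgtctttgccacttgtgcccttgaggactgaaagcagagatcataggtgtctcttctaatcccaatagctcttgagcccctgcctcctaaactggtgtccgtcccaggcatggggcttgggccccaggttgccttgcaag
Calcoco1, chr15:102722129-102722428, minus strand: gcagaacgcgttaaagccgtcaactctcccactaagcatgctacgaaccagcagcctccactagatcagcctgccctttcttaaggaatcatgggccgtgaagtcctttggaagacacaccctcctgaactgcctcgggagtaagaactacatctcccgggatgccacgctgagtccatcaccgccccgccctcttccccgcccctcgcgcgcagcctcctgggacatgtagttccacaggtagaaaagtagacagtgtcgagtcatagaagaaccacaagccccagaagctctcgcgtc
Atg3, chr16:45158579-45158878, plus strand: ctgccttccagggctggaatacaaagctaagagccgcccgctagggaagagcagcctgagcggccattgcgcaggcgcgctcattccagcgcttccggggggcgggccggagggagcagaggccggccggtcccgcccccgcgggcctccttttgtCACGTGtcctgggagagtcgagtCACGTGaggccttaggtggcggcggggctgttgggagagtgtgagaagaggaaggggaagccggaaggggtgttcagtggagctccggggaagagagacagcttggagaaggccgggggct
Atg7, chr6:114670846-114671145, plus strand: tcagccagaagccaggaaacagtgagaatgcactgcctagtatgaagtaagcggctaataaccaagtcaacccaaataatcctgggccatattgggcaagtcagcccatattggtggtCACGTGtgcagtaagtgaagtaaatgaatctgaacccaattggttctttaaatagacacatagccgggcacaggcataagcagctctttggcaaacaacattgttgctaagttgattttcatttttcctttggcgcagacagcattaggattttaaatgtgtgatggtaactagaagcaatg
In Bnip3 the E-box begins 108 bases before the start, in Atg3 the pair begin 94 and 71 bases before it, and in Atg7 it begins 132 bases before it. Each start is that of the window, and whether it is the main start of the gene was not examined. The windows differ in base composition, from 42.7% G and C in Atg7 to 71.7% in Bnip3. A match describes the letters and not binding, and its absence says only that these letters are not in the window.

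The balance between related genes of the same role was also compared. For 12 pairs of relatives, chosen with these results known, the ratio of FPKM was taken within each library, which removes the scaling between libraries. In 6 pairs the 3 treated libraries did not overlap the 3 controls. For single genes by CPM that share was 19.3% above and 17.8% below, which is not the background of these ratios. The share over other gene pairs was not measured. With 3 libraries a group the exact permutation test cannot go below p = 0.1 (two-sided), which is 0.2 after adjustment over the 12 pairs, so no pair could pass.

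The ratio of Atg9b to Atg9a was 2.85, 2.87 and 3.06 in DMSO and 3.7, 4.11 and 3.78 with irinotecan, so Atg9b, the form usually described as restricted to few tissues, was the more abundant one in these cells in both groups. Tfeb to Tfe3 went from 0.271, 0.222 and 0.228 to 0.358, 0.357 and 0.35, with Tfe3 the more abundant in every library. Wipi1 to Wipi2 went from 0.366, 0.26 and 0.322 to 0.413, 0.39 and 0.44. Each of these 3 ratios was higher in every treated library than in any control (exact permutation p = 0.1 for each).

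Atg2a to Atg2b went from 1.40 ± 0.132 to 1.78 ± 0.138 (SD, n = 3), and the ratio of Ulk1 to Ulk2 from 1.39 ± 0.0217 to 1.46 ± 0.0421, where irinotecan replicate 1 (1.42) nearly touched DMSO replicate 1 (1.41). Atg4d to Atg4c went the other way, from 1.40 ± 0.161 to 1.24 ± 0.0348. The remaining 6 overlapped, Bnip3 to Bnip3l (0.95 ± 0.0795 and 1.08 ± 0.116) and Gabarapl1 to Gabarap (0.439 ± 0.00955 and 0.46 ± 0.0268) among them.

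**Figure D4:**
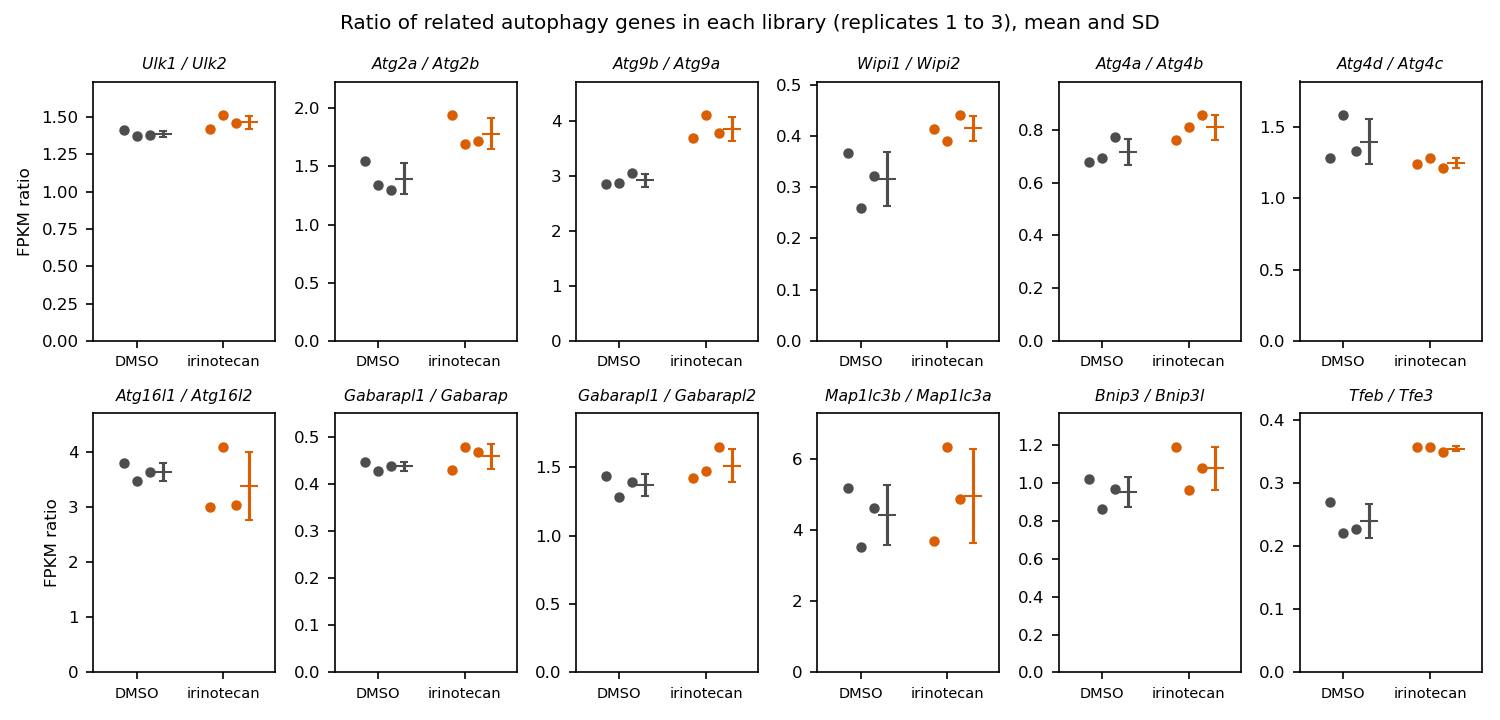
Ratio of FPKM between related autophagy genes in each of the 6 libraries, with the mean and SD (n = 3), on axes that start at 0. Atg9b to Atg9a, Atg2a to Atg2b, Wipi1 to Wipi2 and Tfeb to Tfe3 are higher in all treated libraries, and Bnip3 to Bnip3l and the GABARAP ratios overlap.

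Around the machinery, lists of regulators and partners were described in the same fit, and the share called over all genes (11.8% higher, 10.3% lower) is the measure to read them against. Of 31 genes of mTORC1, AMPK and nutrient control, 3 rose and 3 fell, at a median of 0.03. Rheb, the GTPase that activates mTORC1, fell from 169 ± 6.56 to 143 ± 5.11 CPM (SD, n = 3), which was -0.24 on the log2 scale (adjusted p = 0.002), and Ddit4, an inhibitor of mTORC1, rose by 0.26 ± 0.066 (SE, adjusted p = 0.0064). Tsc2, which inactivates Rheb, rose by 0.18 (adjusted p = 0.032) and Prkab1, an AMPK subunit, fell by 0.20 (adjusted p = 0.025). Neither passed once DMSO replicate 2 (0.098 and 0.094) or irinotecan replicate 1 (0.15 and 0.12) was left out, nor under some other omissions. Without DMSO replicate 2 or without irinotecan replicate 1, 1 gene of the list rose and 1 fell, and 1 fell when scaled by total counts alone.

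Of 8 p53-linked regulators of autophagy with a row, 3 rose and 1 fell, at a median of 0.25. Trp53inp1, a p53 target whose protein binds ATG8 proteins, rose from 15.1 ± 2.54 to 45.3 ± 3.82 CPM (SD, n = 3), and Ei24 from 46.1 ± 3.27 to 69.7 ± 0.54 CPM, log2 fold changes of 1.58 ± 0.10 and 0.60 ± 0.065 (SE, adjusted p = 3.4e-10 and 9.7e-07). Trp53inp2, named after its value was seen, rose by 0.85 ± 0.12; its protein also binds ATG8 proteins. Dram1, a lysosomal p53 target, had a log2 fold change of -0.02 at 6.56 ± 1.02 CPM, and Sesn2 of 0.02. Their relatives Dram2 (0.18, adjusted p = 0.1) and Sesn1 (0.33, adjusted p = 0.11) did not pass, though all their treated libraries stood above all controls. Across the 8 genes, 5 stood above the controls without overlap and 1 below, against 19.3% and 17.8% of all genes. Vmp1, a scramblase of the endoplasmic reticulum, fell by 0.18 (adjusted p = 0.026). Scaling by total counts alone (0.062) ended that call, and so did omitting DMSO replicate 2 or 3, or either of irinotecan replicates 1 and 2 (0.051 to 0.17).

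Of 16 other phagophore factors 5 rose and 0 fell with edgeR, where 1 was lower at an unadjusted p under 0.05; 0 fell with DESeq2 or limma-voom. Zfyve1 (DFCP1), the marker of the membrane site where phagophores form, rose from 13.5 ± 0.627 to 19.3 ± 0.689 CPM (SD, n = 3), or 0.52 ± 0.096 on the log2 scale (SE, adjusted p = 5.9e-04), and Bcl2l1, which encodes the Becn1-binding protein BCL-XL, by 0.23 ± 0.054 (adjusted p = 0.0048). Of 15 genes of fusion with the lysosome, 3 rose: Vamp8, a SNARE of the autophagosome-lysosome pair, by 0.39 ± 0.081 (adjusted p = 0.0015), Tecpr1, a tether, by 0.33 ± 0.075 (adjusted p = 0.0035), and Snap47. Scaled by total counts alone, 6 of them rose.

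Of 15 genes of the PINK1-Parkin list, Pink1, the kinase that marks damaged mitochondria, rose by 0.37 ± 0.12 (SE, adjusted p = 0.03), with overlapping groups. The other 14 did not pass. Of these 14, 5 were below DMSO without overlap, a larger share than the 17.8% of all genes, and 1 was above, where 19.3% of all genes were. The Pink1 call ended when replicate 1 or 3 of either group was left out (0.069 to 0.21). Among 12 receptors for the endoplasmic reticulum, ferritin and other cargo, Retreg2 rose by 0.18 (adjusted p = 0.031) and Stbd1, a receptor for glycogen, and Nufip1, a receptor for ribosomes, fell by 0.42 (adjusted p = 0.02) and 0.23 (adjusted p = 0.026). Each of these 3 calls ended when any of 3 or 4 single libraries was left out, irinotecan replicate 1 in every case (0.19, 0.11 and 0.084). Scaled by total counts alone, 3 of the list rose and 1 fell. None of the 6 other MiT and FoxO transcription factors with a row passed with edgeR or DESeq2; Foxo4 came nearest, at 0.25 ± 0.094 (SE, adjusted p = 0.065, unadjusted p under 0.05). With total counts as scaling, or without DMSO replicate 1, 1 of the 6 was called higher.

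**Figure D5:**
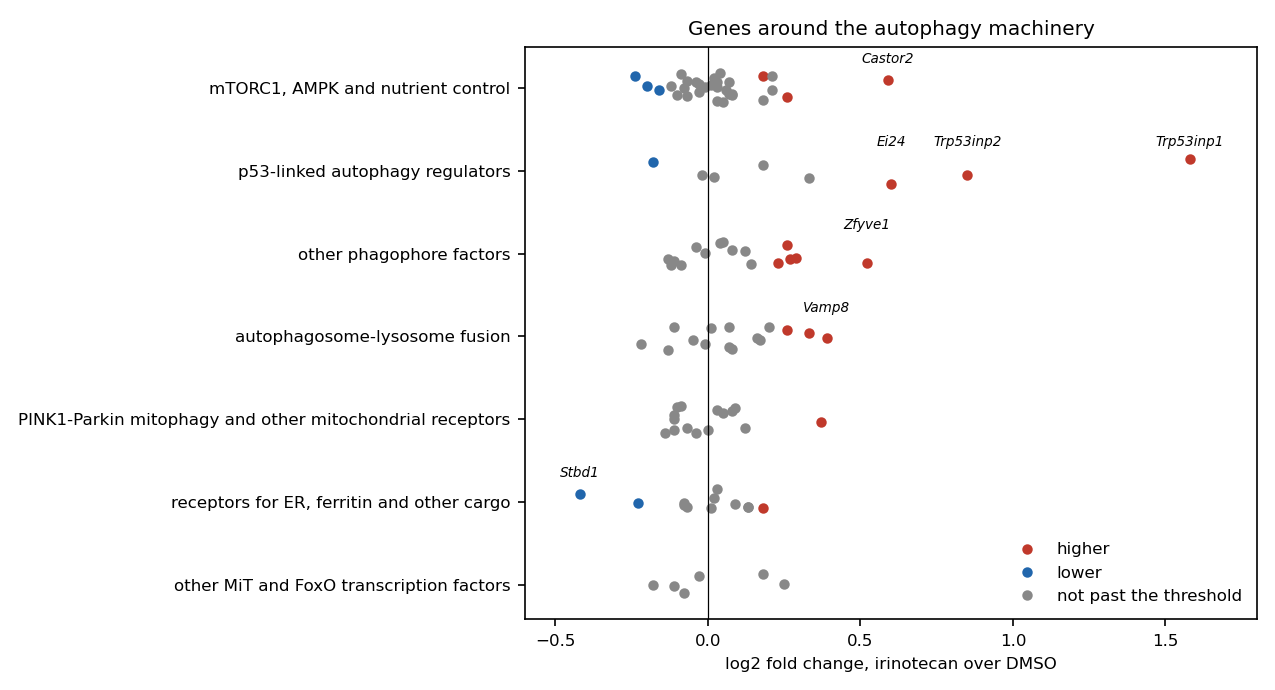
Log2 fold change of irinotecan over DMSO for each gene of the lists around the autophagy machinery, with genes past an adjusted p of 0.05 in red or blue. Trp53inp1 (1.58), Trp53inp2 (0.85) and Ei24 (0.60) lie furthest right, and most other genes lie within 0.25 of 0.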

How the data were processed

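RNA-seq of 6 libraries was analysed, 3 per group. The authors deposited 1 table of whole-number counts and FPKM per gene and library, with log2 fold changes and p-values of their own. The submitters' processing notes name, without their roles, edgeR 3.24.3 and DESeq2 1.22.1, the counter featureCounts 1.6.2, the assembler StringTie 1.3.4d, the aligner HISAT2 2.1.0, the trimmer fastp 0.19.3 and build GRCm39; strandedness is not given in the sources used here. The deposited log2 fold changes are signed as DMSO over irinotecan, so directions were taken from the counts. At the deposited adjusted p under 0.05, the authors' deposited table called 11 autophagy genes higher and 3 lower, all 14 of them also called here. For these 14 the deposited adjusted p equals, to 2 digits, that of the DESeq2 alternative below, so the deposited calls are not a separate check.

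Counts were fitted in R 4.3.3 with edgeR 4.0.16 (filterByExpr, TMM scaling, robust quasi-likelihood test), and p-values were adjusted by Benjamini-Hochberg over the 11599 of 11604 genes kept. The threshold was 0.05, the SE is the log2 fold change over the root of F, and intervals are 95%. Levels are TMM-scaled CPM or, between genes, the deposited FPKM. The fit was tested on simulated data. Alternatives used DESeq2 1.42.0, limma 3.58.1 (voom), other scalings and filters, a replicate block, and each library left out. Libraries of a group differed by 4.24 to 6.47 times sampling noise, so none was counted as a copy. The autophagy genes, lists and pairs were chosen with earlier results of these data known. Named autophagy genes were those past the threshold, a fixed set of core genes whatever their result, and the highest and lowest log2 fold change of each role; of each surrounding list, up to 2 higher and 2 lower genes past the threshold with the smallest p. Other genes named were chosen after their values were seen. Promoters came from RefSeq (GRCm38.p6); their coordinates are not those of the GRCm39 table.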

Additional observations from a re-analysis of the deposited data

How the results depend on the processing

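DESeq2, limma-voom, other size factors and both other filters each called 11 autophagy genes higher and 3 lower. With total counts as the only scaling the numbers were 12 and 2 and the median log2 fold change was 0.111 instead of 0.081; that scaling moved the median of all genes to 0.031 and the share of higher calls from 53.5% to 66.1%. Of the 14 called genes, 8 were called under all 13 alternatives: Atg13, Atg9b, Wipi2, Gabarapl1, Map1lc3b, Calcoco1, Bnip3l and Tfe3. Leaving out single libraries gave 7 to 12 autophagy genes higher, 2 to 3 lower and a median of 0.034 to 0.112, and over all genes 804 to 1211 higher and 589 to 1151 lower. With a replicate block, 13 autophagy genes were higher and 4 lower, and over all genes 1808 were higher and 1820 lower, against 1190 lower without it. Among the autophagy genes followed singly under each alternative, that block also brought Tfeb and Sqstm1 past the threshold (adjusted p = 0.033 for each). These do not account for all calls added by the block, and the other autophagy genes were not followed singly. In the surrounding lists it gave 4 lower of the PINK1-Parkin list, 3 higher of the cargo receptors, 1 higher of the MiT and FoxO factors, 1 lower of the phagophore factors, and 6 higher and 1 lower of the fusion genes. Libraries with the same number deviated together only weakly (correlations of 0.123, 0.0397 and 0.0846), though each correlated best with its own number, a hint from the data and not from the design, so the numbers were not taken as pairs. The cause of these shifts was not tested. With 3 libraries a group, genes at few counts (Atg14, Atg10 and Map1lc3a) have intervals that reach beyond 1.5-fold, while 26 of the 29 genes that did not pass have intervals within it.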

Other observations

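A list of 15 hypoxia-responsive genes was added after the data were seen, because Bnip3 and Bnip3l are known targets of hypoxia-inducible factor. Of the 12 with a row, 2 rose (Pdk1, a kinase that restrains pyruvate dehydrogenase, and Car9, a carbonic anhydrase) and 2 fell (Slc2a1, a glucose transporter, and Vegfa, an angiogenic factor), against 11.8% and 10.3% of all genes. The groups of Car9 overlapped, with counts of 59, 34 and 68 for DMSO libraries and of 120, 65 and 105 for treated ones. The mean log2 deviation of the list from the DMSO mean was 0.06, -0.06 and -0.01 in DMSO replicates 1 to 3 and 0.28, 0.01 and 0.13 with irinotecan. For Bnip3 and Bnip3l together the values were 0.20, -0.20 and 0.00 in DMSO and 0.76, 0.33 and 0.61 with irinotecan.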
